A study of Homo sapiens with 6 samples.

Results

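The distal sites of all 3 factors are places in the genome of 786-O cells where DPF3a, SMAD4 and p300 each had a ChIP-seq peak away from the starts of genes. They were the rows of the DPF3a peak list that overlapped a SMAD4 peak and a p300 peak, each by at least 0.5 of both peaks, and whose DPF3a summit lay more than 1000 bp from every transcript start of the GENCODE annotation. There were 3116 such sites, which is 6.05% of the 51530 DPF3a peaks, 6.72% of the 46367 SMAD4 peaks and 15.3% of the 20380 p300 peaks. Of all 7820 sites of the 3 factors they made up 39.8%, and the other 4704 lay within 1000 bp of a start and are called promoter sites below. Because the sites were chosen by their peak calls, that is by score, overlap and summit position, their peak values are given as descriptions with no test.

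786-O is a human cell line derived from a clear cell renal cell carcinoma (ccRCC). DPF3a was overexpressed with an HA tag and pulled down through the tag, from cells fixed with DSG and then formaldehyde, whereas SMAD4 and p300 were pulled down with antibodies against the proteins themselves after formaldehyde alone. There were 2 libraries per factor (HA-DPF3a, SMAD4 and p300; 6 in all), and the authors made 1 peak list per factor from both, so that no value has a replicate error and factors are not compared in level. The labels name no treatment, and the DPF3a list reports on overexpressed protein only. The paper describes the SMAD4 and p300 ChIP-seq as done on 786-O cells and does not say whether these cells overexpressed DPF3a. The lists may therefore come from cells with and without DPF3a. A shared site is an overlap of peak lists, and joint binding in the same cells was not tested.

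DPF3a is a subunit of SWI/SNF, a complex that uses ATP to move nucleosomes and open chromatin. SMAD4 is the common partner of the receptor-activated SMAD proteins, which carry TGF-β and BMP signals to DNA, and p300 is an acetyltransferase of histones that is found at active enhancers and promoters. Enhancers are regulatory stretches far from gene starts, where factors such as AP-1 (dimers of FOS and JUN proteins) bind short motifs and bring such cofactors along.

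Sequences of 8 of the 10 sites that ranked highest in all 3 lists together, once sites near assembly gaps, further sites of the same gene and 1 chromosome not shown were set aside, are printed below, to show what the DNA under such a site looks like. Each is the 101 bp around the DPF3a summit on the plus strand of hg38, with the AP-1 heptamer (TGACTCA, or TGAGTCA on the other strand) in capitals. The first 4 carry it. All of the 10 sites with the heptamer are printed, but only 4 of those without it, so the printed set overstates its share. Over all sites that share was 27.6%.

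MEOX2 intron, chr7:15643482-15643582: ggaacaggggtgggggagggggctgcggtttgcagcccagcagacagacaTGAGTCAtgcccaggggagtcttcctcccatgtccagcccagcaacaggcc
Intergenic, nearest start SCNN1B, chr16:23254568-23254668: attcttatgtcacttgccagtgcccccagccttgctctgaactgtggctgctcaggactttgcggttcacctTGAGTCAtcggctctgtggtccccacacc
KSR2 intron, nearest start NOS1, chr12:117487414-117487514: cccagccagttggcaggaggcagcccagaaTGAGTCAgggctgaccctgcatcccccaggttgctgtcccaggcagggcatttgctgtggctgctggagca
Intergenic, nearest start DRD1, chr5:175246519-175246619: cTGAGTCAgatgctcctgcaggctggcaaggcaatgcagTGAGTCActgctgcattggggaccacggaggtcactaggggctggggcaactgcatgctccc

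The site nearest DRD1 held 2 heptamers, and in the MEOX2 site the heptamer lay at the summit itself. The other 4 windows hold no heptamer.

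Intergenic, nearest start ICE1, chr5:5665664-5665764: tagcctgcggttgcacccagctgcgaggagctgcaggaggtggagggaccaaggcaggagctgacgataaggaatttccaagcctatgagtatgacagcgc
GRHL3 intron, chr1:24266531-24266631: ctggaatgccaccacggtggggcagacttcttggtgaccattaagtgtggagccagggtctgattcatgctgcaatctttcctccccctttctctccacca
Intergenic, nearest start EPHB2, chr1:22689639-22689739: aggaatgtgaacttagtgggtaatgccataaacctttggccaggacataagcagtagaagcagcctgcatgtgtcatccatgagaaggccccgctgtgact
Intron of a noncoding gene, nearest start TRIB2, chr2:12507478-12507578: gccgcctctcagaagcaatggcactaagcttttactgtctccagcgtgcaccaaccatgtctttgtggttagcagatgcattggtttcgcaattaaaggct

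Among these 4, the TRIB2 window held the RUNX motif TGTGGTT, the EPHB2 window held the TEAD motif ACATTCC on the other strand, the ICE1 window held the E-box CAGCTG, and the GRHL3 window held none of these.

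At the highest ranked of these 10 sites, the intergenic one nearest ICE1, DPF3a had a fold enrichment of 18.3, SMAD4 of 17.2 and p300 of 10.3. Fold enrichment is the read pileup at a summit over the local background, each plus 1, and these 3 values lay at percentiles 99.9, 99.7 and 99.8 of their lists. The MEOX2 site followed with 15.8, 18.8 and 12.9, and the GRHL3 site had 16.9, 18.4 and 8.45. GRHL3 encodes a transcription factor of epithelia and MEOX2 a homeobox factor. The 3 summits of the MEOX2 site lay close together on the chromosome, that of DPF3a at 15643532, that of SMAD4 at 15643525 and that of p300 at 15643509. The remaining 2 of the 10 sites lay in an intron of UBE2L3 (19.5, 14.8 and 7.55) and between genes near IGFL4 (17.3, 22.1 and 7.21).

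Over all 3116 sites DPF3a had a median fold enrichment of 9.84 (quartiles 7.22 to 12.4), SMAD4 of 8.71 (6.76 to 11.1) and p300 of 4.65 (4.01 to 5.43). In reads at the summit, the medians were 55, 70 and 27. The sites were therefore strong in the DPF3a and SMAD4 lists, at median percentiles 81.2 and 78.2, and below the middle of the p300 list, at percentile 37.5. Sites with more DPF3a also had more SMAD4, with a Spearman correlation of 0.65 across the sites, which are no independent replicates and share local background. For p300 it was 0.24 with DPF3a and 0.20 with SMAD4. By summit height in reads the same 3 values were 0.62, 0.36 and 0.54, so that how closely p300 followed SMAD4 depended on the measure.

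**Figure D1:**
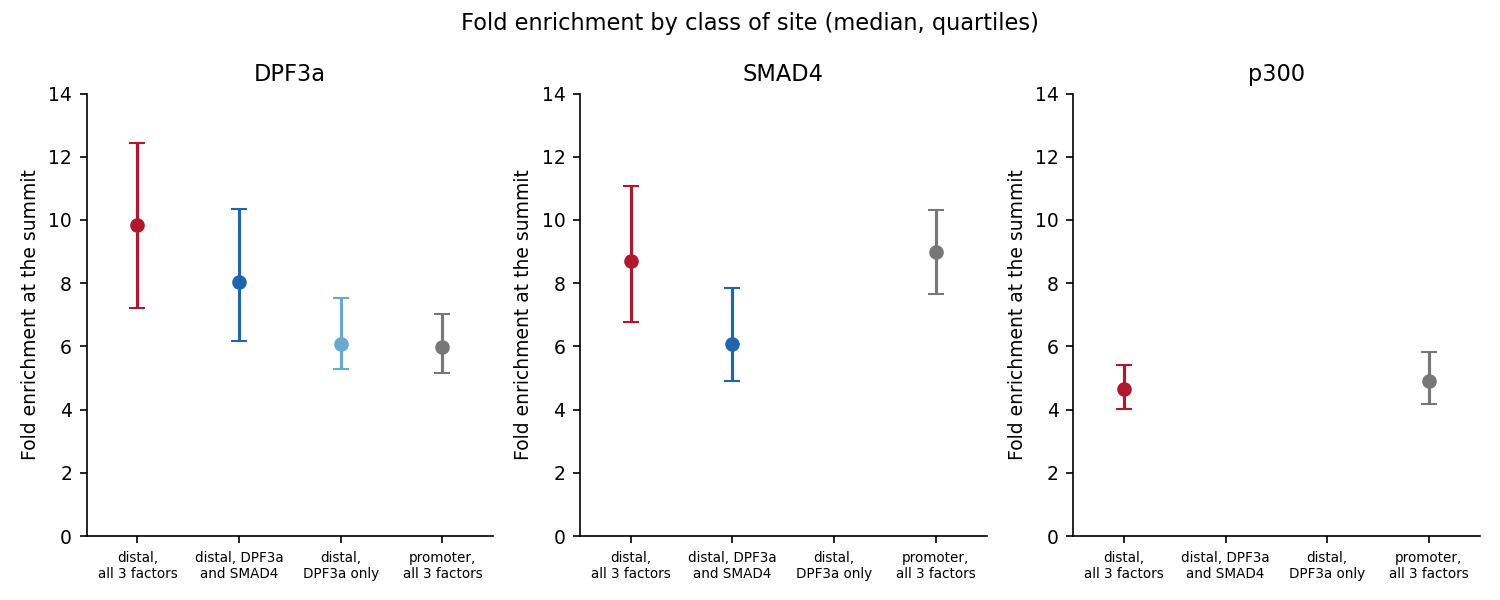
Fold enrichment at the summit (y axis) for the 3 factors by class of site (x axis), as median (point) and quartiles (bars). The distal sites of all 3 factors had medians of 9.84, 8.71 and 4.65, and a class without a peak of a factor has no point in that panel.

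The sites were compared with 3 other classes. A total of 17086 distal DPF3a-SMAD4 sites overlapped by 0.5 of both peaks and touched no p300 peak, and 14969 distal DPF3a peaks touched neither other list. Where no p300 peak was called, median fold enrichment was 8.02 for DPF3a and 6.09 for SMAD4, so that the SMAD4 median was 1.43 times as high with p300 as without. DPF3a peaks that stood alone had a median of 6.06. Promoter sites had a lower DPF3a median, 5.97, beside similar ones for SMAD4 (8.97) and p300 (4.90). The background around the summit moved with these classes too. Its median in the DPF3a library was 4.80 reads at the distal sites of all 3 factors and 3.32 at the DPF3a-SMAD4 sites without p300, and in the SMAD4 library it was 6.72 and 4.34 reads. The part of background in the calls was not tested.

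DPF3a and SMAD4 peaked closer to each other than to p300. The median distance between summits was 39 bp (quartiles 16 to 72) for DPF3a and SMAD4, 83 bp (36 to 154) for DPF3a and p300 and 74.5 bp (32 to 140) for SMAD4 and p300. DPF3a and SMAD4 summits lay within 50 bp of each other at 60.5% of the sites, against 33.1% for DPF3a and p300. At promoter sites the distance from DPF3a to p300 was larger, with a median of 124 bp. The p300 summits rest on the fewest reads, and how far that places them was not tested.

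The members just inside the distance limit lay 1008 bp (nearest gene REEP3), 1009 bp (OTULINL) and 1018 bp (TNFRSF6B) from a start, and had DPF3a fold enrichments of 8.89, 5.93 and 9.43. Just outside it were sites at 997 bp (AFAP1) and 992 bp (PHYHD1) with 16.2 and 6.06. For the overlap limit, sites near DNAL4 and CPN2 had a smaller overlap of exactly 0.5, and sites near RIPPLY1 (0.4995), MPND (0.4994) and MAP1LC3B2 (0.4994) were left out. On the distance limit, fold enrichments inside and outside overlapped.

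By position, 58.1% of the sites had their DPF3a summit in an intron and 38.1% between genes, and coding exons held 44 sites (1.41%). The median distance to the nearest transcript start of any kind was 10464.5 bp. Only 26.9% lay within 20 kb of the canonical start of a protein-coding gene, and 27.7% lay more than 100 kb from one. The distance differed from that of DPF3a-SMAD4 sites without p300, of which 32.8% lay more than 100 kb away, by -5.06 percentage points (95% interval -6.76 to -3.32, Newcombe). By RefSeq, a second annotation, 67 of the 3116 sites (2.15%) lay within 1000 bp of a start.

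The sites were GC-rich compared with the other distal sites. In the 401 bp around the summit, the median GC content was 53.6% (quartiles 49.6 to 58.6), compared with 45.6% at DPF3a-SMAD4 sites without p300, 41.6% at DPF3a sites alone and 67.6% at promoter sites. GC content over 50% was found in 73.0% of the sites (95% Wilson interval 71.4 to 74.5) and in 26.6% of the DPF3a-SMAD4 sites without p300, a difference of 46.4 points (44.7 to 48.05). The difference held at every strength of DPF3a binding. In 5 classes of DPF3a fold enrichment it ranged from 43.7 points (40.1 to 46.9) in the weakest to 52.2 points (47.97 to 56.2) in the strongest. These intervals cover counting error only, since neighbouring sites are not independent. The GC content of reads differs between libraries for technical reasons as well, and no input library is named, so its part in the p300 calls was not tested.

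**Figure D2:**
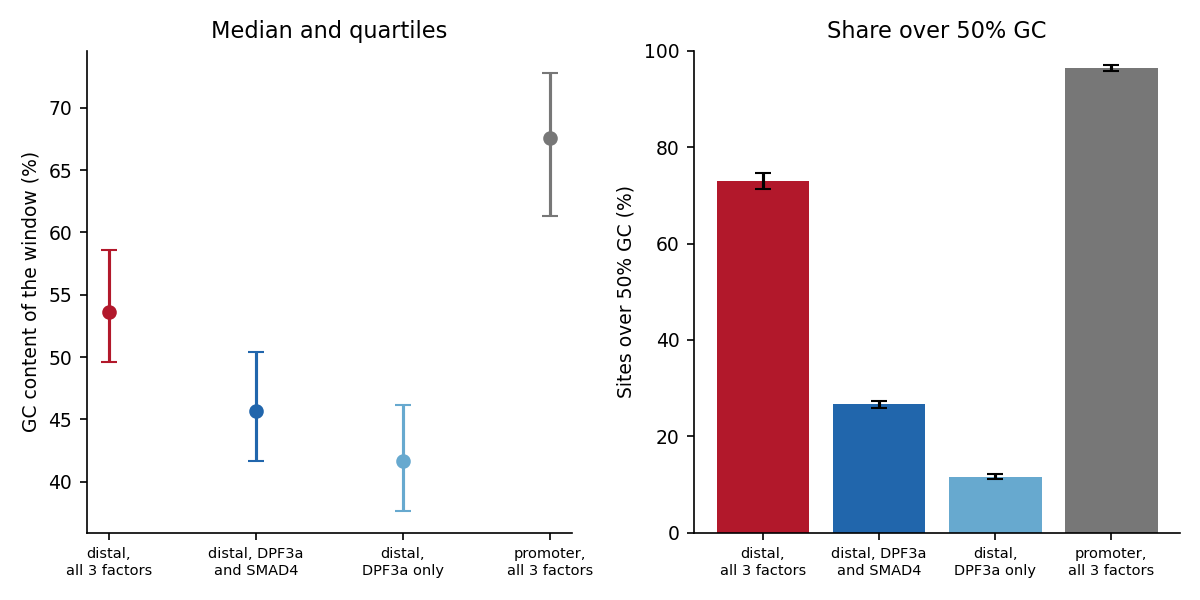
GC content of the 401 bp around the DPF3a summit by class of site, as median with quartiles (left) and as the share of sites over 50% GC with 95% Wilson intervals (right). The distal sites of all 3 factors lie at 53.6% and 73.0%, above both other distal classes and below the promoter sites.

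Most of the sites were GC-rich without being rich in CpG. Only 251 of the 3116 sites (8.06%) were CpG-rich, with GC over 50% and a CpG ratio (CpG observed over expected) over 0.6, whereas 84.6% of promoter sites were. The 251 CpG-rich sites differed from the other 2865. Their median DPF3a fold enrichment was 6.93 against 10.2, while SMAD4 (9.14 against 8.67) and p300 (4.60 against 4.66) differed less in their medians. The AP-1 heptamer was found in 8.37% of them (5.54 to 12.4) and in 29.3% of the others (27.65 to 30.98), and GGGCGG, the box of SP and KLF factors, in 34.7% and 4.61%. They were also closer to starts, at a median of 7071 bp against 10892 bp, and 20 of them (7.97%) were within 1000 bp of a RefSeq start.

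Among the motifs searched, AP-1 was the most frequent at the sites. TGACTCA, read on both strands, stood in the 101 bp around the DPF3a summit of 860 of 3116 sites, which is 27.6% (95% interval 26.1 to 29.2). In windows of the same length centred 500 bp to either side it stood in 105 of 6232, or 1.68%, a difference of 25.9 points (24.3 to 27.5). Around the SMAD4 summits of the same sites the share was 22.4% (20.9 to 23.9), and around the p300 summits 12.5% (11.4 to 13.7). The intervals of the 3 shares did not overlap, but the shares come from the same sites, which these intervals do not take into account. Around p300 summits heptamers were spread more widely. These summits rest on the fewest reads, and how far that lowers and broadens their share was not tested.

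**Figure D3:**
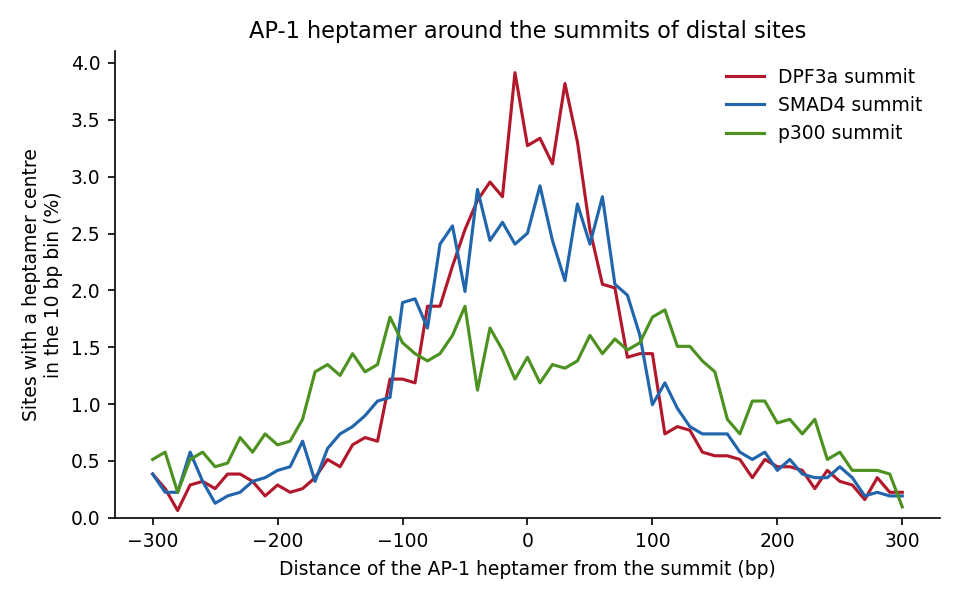
Share of the 3116 sites with the centre of an AP-1 heptamer in each 10 bp bin (y axis) by distance from the summit of each factor (x axis, bp). Around DPF3a summits the share reaches 3.92% and around SMAD4 summits 2.92% within 10 bp of the summit, whereas the p300 curve is low and broad, with 1.41% at the summit.

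No difference in AP-1 was detected between distal sites with and without p300. The heptamer stood in 27.3% of the 17084 DPF3a-SMAD4 sites without p300 whose window could be read, a difference of 0.30 points (-1.38 to 2.03). When the comparison sites were weighted to the GC content of the members in 5 classes (GC weighting), the difference was 1.10 points (-0.76 to 2.97). The outer classes were open, below 48.88% and from 59.85% GC, so GC content was not made equal within them. With a like weighting to DPF3a fold enrichment the difference was -2.44 points (-4.17 to -0.70), so that sites with p300 then held it less often. With a required overlap of 0.8 in place of 0.5, which left 617 sites, the difference was 5.66 points (1.91 to 9.59). DPF3a sites alone held it in 24.2%, lower by 3.38 points (1.69 to 5.11), or by 1.93 points (-0.54 to 4.40) after GC weighting. Promoter sites held it in 4.91%, a difference of 22.7 points (21.0 to 24.4). This was 13.3 points (10.4 to 16.1) after GC weighting and 8.65 points (-5.14 to 20.2) for the few sites with scores over 200. The median GC content of promoter sites, 67.6%, lay in the open upper class, so GC content was not equal in that comparison.

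Among the sites themselves the share with AP-1 rose with DPF3a fold enrichment. All motifs here were searched around the DPF3a summit, also for the classes of SMAD4 and p300. How far stronger DPF3a peaks place that window better, and so raise the shares, was not tested. With the sites in 4 equal classes of DPF3a fold enrichment, the share rose from the lowest class to the highest from 16.3% (13.9 to 19.1) through 24.5% and 31.3% to 38.3% (34.9 to 41.7). Across 4 such classes of SMAD4 fold enrichment it was 24.9%, 27.5%, 29.3% and 28.8%, and across those of p300 it was 28.2%, 29.0%, 24.9% and 28.2%, with overlapping intervals. The motif of RUNX factors, TGTGGTT, rose with DPF3a (3.08%, 5.13%, 6.67% and 10.4%) and also with SMAD4 (3.47%, 6.03%, 6.03% and 9.76%). That of TEAD, the DNA-binding partners of YAP, which is ACATTCC, rose with DPF3a (3.08%, 3.21%, 5.78% and 8.47%) and was at 4.24%, 4.75%, 6.29% and 5.26% across SMAD4 classes. GGGCGG fell with DPF3a, from 10.3% in the lowest class to 3.08% in the highest, but with SMAD4 it went from 4.37% (3.14 to 6.04) to 8.47% (6.71 to 10.6). Sites with the heptamer had a median DPF3a fold enrichment of 11.1, and those without it 9.36, while their p300 medians were 4.59 and 4.67.

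Of the motifs found in at least 5% of the windows, those other than AP-1 were also more frequent at summits than in the flanks, with CAGCTG at 9.31% against 5.36%, GGGCGG at 7.03% against 3.03%, the RUNX motif at 6.32% against 1.52% and the TEAD motif at 5.13% against 1.57%. Windows that held any of the AP-1, RUNX and TEAD motifs made up 36.5%, and 3.02% held at least 2 AP-1 heptamers. Of 4 motifs compared, 3 were rarer where AP-1 was present. The comparison was not weighted to GC content, and the CpG-rich sites held GGGCGG more often and AP-1 less often than the others. The RUNX motif stood in 4.77% of the windows with the heptamer and 6.91% of those without, a difference of -2.15 points (-3.82 to -0.24), and the TEAD motif in 3.60% and 5.72%, a difference of -2.11 points (-3.59 to -0.40). GGGCGG stood in 43 of 860 windows with it and 176 of 2256 without, a difference of -2.80 points (-4.53 to -0.84), and CAGCTG in 9.77% and 9.13%, a difference of 0.64 points (-1.57 to 3.08). The E-box CAGGTA, bound by ZEB repressors, was below its flanks, at 2.09% against 4.65%, a difference of -2.57 points (-3.28 to -1.82). The other distal classes were alike, with 2.35% against 4.61% at DPF3a-SMAD4 sites without p300 and 2.97% against 4.47% at DPF3a sites alone.

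**Figure D4:**
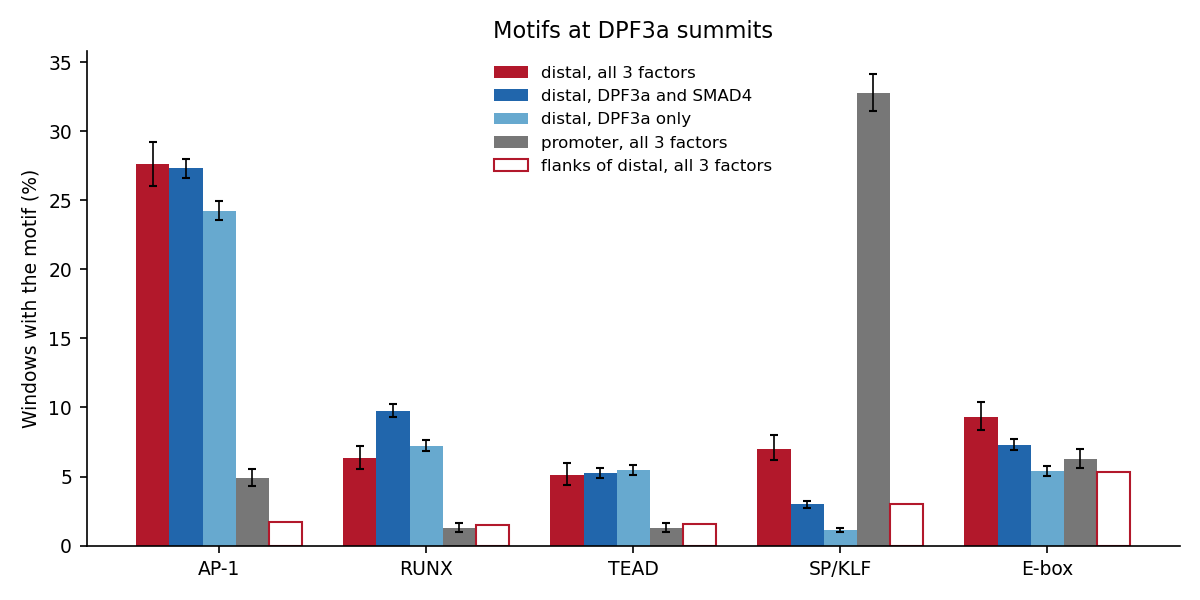
Share of 101 bp windows around DPF3a summits that hold each motif (y axis, with 95% Wilson intervals) for 4 classes of site (filled bars) and for the flanks of the distal sites of all 3 factors (open bars). AP-1 is at 27.6%, 27.3% and 24.2% in the 3 distal classes and 4.91% at promoter sites, while SP/KLF reaches 32.8% at promoter sites, and the E-box is CAGCTG.

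Several differences from the DPF3a-SMAD4 sites without p300 did not hold after GC weighting. The RUNX motif was rarer at the members by 3.45 points on the plain shares (6.32% against 9.77%), but after weighting the difference was -0.56 points (-1.56 to 0.43). GGGCGG was more frequent by 4.04 points (3.15 to 5.02), and after weighting this turned to -0.98 points (-2.11 to 0.15). CAGCTG behaved alike, with 2.01 points (0.96 to 3.15) and -0.55 points (-1.81 to 0.71). The forkhead (FOX) motif TGTTTAC stayed rarer both ways, at 0.74% against 1.91%. The difference was -1.18 points (-1.50 to -0.76), and -0.93 points (-1.35 to -0.51) after weighting, which leaves GC content unequal within the open lowest class. Against DPF3a sites alone the weighted difference was -0.14 points (-0.61 to 0.33).

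The bases beside the AP-1 heptamer differed as well. Of the 860 sites with a heptamer, 17.9% (15.5 to 20.6) held it as GTGACTCAG, compared with 10.2% (9.39 to 11.1) of the 4664 DPF3a-SMAD4 sites without p300 that held one. The difference of 7.68 points (5.1 to 10.5) was 3.71 points (0.70 to 6.73) after GC weighting. ATGACTCAT was less frequent, at 7.44% and 11.7%, and the difference of -4.24 points (-6.08 to -2.10) was -1.31 points (-3.37 to 0.76) after GC weighting. Both nonamers were picked after their shares were seen.

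SMAD, HNF1 and HNF4 motifs were rare both at the summits and in the flanks. The SMAD palindrome GTCTAGAC stood in 0 of 3116 windows around DPF3a summits, which allows a share of up to 0.0963% by a floor of 3 counts and 0.123% by the Wilson interval, and in 3 of 6232 flanking windows (0.048%). Around SMAD4 summits it stood in 4 windows (0.13%, against 0.016% in their flanks), a difference of 0.11 points (0.004 to 0.31). The match covers this one palindrome, and single SMAD boxes of fewer bases were not searched. The HNF1 motif was found in 0 windows, as in the flanks, and the HNF4 motif CAAAGTCCA in 4 (0.13%, against 0.14% in the flanks). The hypoxia response motif TACGTGC, bound by HIF factors, was in 11 windows (0.35%, against 0.24% in the flanks, a difference of 0.11 points with an interval of -0.11 to 0.41). CACGTG, the E-box of MYC and related factors, was in 2.25% against 1.56%, higher by 0.69 points (0.12 to 1.34). The remaining motifs searched were TGACGTCA (CRE), CCGGAAGT (ETS), AGATAAG, which GATA factors bind, TTGCNNAA (C/EBP) and those of CTCF and NRF1. Of these only C/EBP (4.33%) and GATA (1.32%) passed 1%, each with an interval of the difference from its flanks that spanned 0. The rarer ETS and NRF1 motifs were above their flanks, by 0.19 points (0.01 to 0.46) and 0.11 points (0.004 to 0.31).

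The sites were spread unevenly over chromosomes. As a share of all distal sites shared by DPF3a and SMAD4 (3116 of 21455, 14.5%), members made up 21.96% on chromosome 16, 18.7% on 17, 18.1% on 7 and 18.02% on 22. They made up 8.08% on chromosome 4, 6.55% on X and 4.65% on chromosome 14, where 21 of 452 shared sites met the overlap with a p300 peak. Members made up 15.2% on chromosome 8 and 16.6% on 19. The median p300 background on chromosomes 16, 14, X, 7, 8 and 19 was 6.02, 2.96, 2.64, 2.90, 2.52 and 6.36 reads. In the same order, the DPF3a background was 3.26, 1.90, 1.71, 3.42, 2.82 and 3.04 reads. That of SMAD4 was 5.56, 4.52, 3.32, 6.20, 5.36 and 5.98 reads. The part of background in the shares was not tested. Most sites stood alone. With summits up to 12.5 kb apart joined, 2760 had no neighbour, 151 pairs and 16 larger groups formed, and the largest held 4 sites, at ITGA3 (chr17:50047668-50064752), HPCAL1 (chr2:10278757-10290016) and PRKAG2 (chr7:151687792-151712417).

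The 3116 sites were nearest to the canonical starts of 2243 protein-coding genes, 1683 of which had 1 site. MYC had the most, 10, followed by MAF with 8, COL5A1 and TNS3 with 7 each, and GADD45B, RUNX1, TRIO and WNT7B with 6 each. Another 20 genes had 5. Genes with distant neighbours can gather more sites by this count. The 10 sites of MYC, the growth regulator, lay 67575 to 655078 bp from its start, most of them in introns of noncoding genes, with DPF3a fold enrichments of 4.47 to 12.2 and p300 of 2.89 to 6.18.

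The 8 sites of MAF, a leucine zipper factor related to AP-1, ranged from 9.26 to 15.5 in DPF3a fold enrichment and from 4.62 to 18.8 in SMAD4. An AP-1 heptamer was held by 4 of them, and by 27.6% of all members. COL5A1, which encodes a fibrillar collagen, had 7 sites upstream of its start, at -138785 to -4085 bp, with DPF3a fold enrichments of 13.7, 13.3, 6.15, 15.1, 12.0, 14.01 and 12.1 from far to near. Only the site at -93784 bp had a low DPF3a fold enrichment. It had 81 DPF3a reads at its summit, beside 82 to 182 at the others. Its p300 fold enrichment of 4.07 was like that of the others (3.63 to 5.03). TNS3, a focal adhesion protein, had 3 of its 7 sites in its own introns. All 6 sites of RUNX1 lay in its introns, upstream of its canonical start, and 2 of them held the AP-1 heptamer, with DPF3a fold enrichments of 11.4 and 9.60. TRIO, an exchange factor for small GTPases, had its 6 sites in introns 22333 to 126812 bp from its start, with DPF3a fold enrichments that ranged from 2.45, the lowest of all members, to 10.2.

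Of 20033 protein-coding genes, 2525 (12.6%) had at least 1 of the sites within 50 kb of the canonical start, and 430 (2.15%) had at least 2. The median number per gene was 0, as it was in 7 of the 9 gene lists examined. These lists are small, and a site near a gene is no measure of its expression or regulation.

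Among genes of TGF-β and BMP signalling and their targets, 8 of 27 had a site. SMAD7, the inhibitory SMAD that the pathway induces, had the strongest pair, at 48771 and -47385 bp from its start (negative upstream), with SMAD4 fold enrichments of 15.99 and 12.2. SMAD3, a receptor-activated SMAD, had a site upstream and one in its own intron, with SMAD4 fold enrichments of 5.72 and 5.61. ID1 and BHLHE40 also had 2 sites each, and ID2, PMEPA1 and TGFBI had 1. The site at -38716 bp from the start of PMEPA1, which encodes a feedback inhibitor of the pathway, had the highest SMAD4 value of the list, 17.6.

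In the list of cell movement and matrix genes, 9 of 26 had a site. ITGA3, an integrin subunit, had 5, COL5A1 and the ligand gene WNT7B had 3 each, and the collagens COL1A1 and COL6A3, the protease PLAU and the matrix protein TNC had 2 each. The 5 sites at ITGA3 had moderate values, with DPF3a fold enrichments of 9.37, 4.43, 9.23, 6.74 and 6.53 from upstream to downstream and p300 of 3.78, 2.81, 3.29, 2.82 and 5.37. COL4A1 and MMP2 had 1 site each, and that of MMP2, a gelatinase, lay in its own intron 24051 bp from the start, with fold enrichments of 8.32, 7.96 and 3.61 for DPF3a, SMAD4 and p300. VIM, the mesenchymal filament gene and a marker fixed for the line, had none.

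Genes that encode AP-1 and related leucine zipper factors had a site in 6 of 12 cases. FOSB and FOSL2 had 2 each and JUN, JUNB, JUND and MAFF 1 each. The JUN site, 28437 bp downstream of the start, had fold enrichments of 14.4, 11.7 and 5.88, and the stronger FOSB site, in an intron of ERCC1, had 12.5, 14.9 and 5.30. By contrast, the JUNB and JUND sites had DPF3a fold enrichments of only 4.64 and 4.60. Of these 8 sites 1, at FOSL2, held the AP-1 heptamer itself, beside 27.6% of all the distal sites of the 3 factors. RUNX1 and RUNX3 had sites, of 4 RUNX genes including the partner, and CCN1 and LATS2 were 2 of 14 Hippo genes.

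Hypoxia targets and factors, which are active in many ccRCC lines that lack VHL, had a site in 9 of 20 cases. ANGPTL4, NDRG1, PFKFB3 and VEGFA had 2 each. One of the PFKFB3 sites, in its own intron 36462 bp from the start, had the highest DPF3a fold enrichment of the list, 15.6, and held an AP-1 heptamer. The VEGFA sites, at -44880 and 28804 bp, had SMAD4 fold enrichments of 14.7 and 9.93. EPAS1, which encodes HIF-2α, had 1 site in its own intron (10.1, 12.8 and 5.17), and the ADM site had the highest p300 value of all sites near listed genes, 9.63. CA12, a further marker of the line, had 1 site and CA9 had none.

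Among renal lineage factors there was a site in 3 of 15 cases, for PAX2 with 2 and PAX8 and WT1 with 1 each, with DPF3a fold enrichments of 3.12 at PAX8, 6.12 and 4.73 at PAX2 and 9.64 at WT1, where p300 was at 6.03. LHX1 had none. SWI/SNF subunits had a site in 3 of 22 cases (ARID1A, ARID1B and DPF2), and genes of other tissues in 3 of 26 (INS and MBP among them), close to the 12.6% of all protein-coding genes. With DPF3a-SMAD4 sites without p300, which were near 41.6% of all genes, the same lists gave 23 of 27 for TGF-β, 23 of 26 for cell movement, 11 of 12 for AP-1 factors, 15 of 20 for hypoxia, 11 of 22 for SWI/SNF and 13 of 26 for genes of other tissues.

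**Figure D5:**
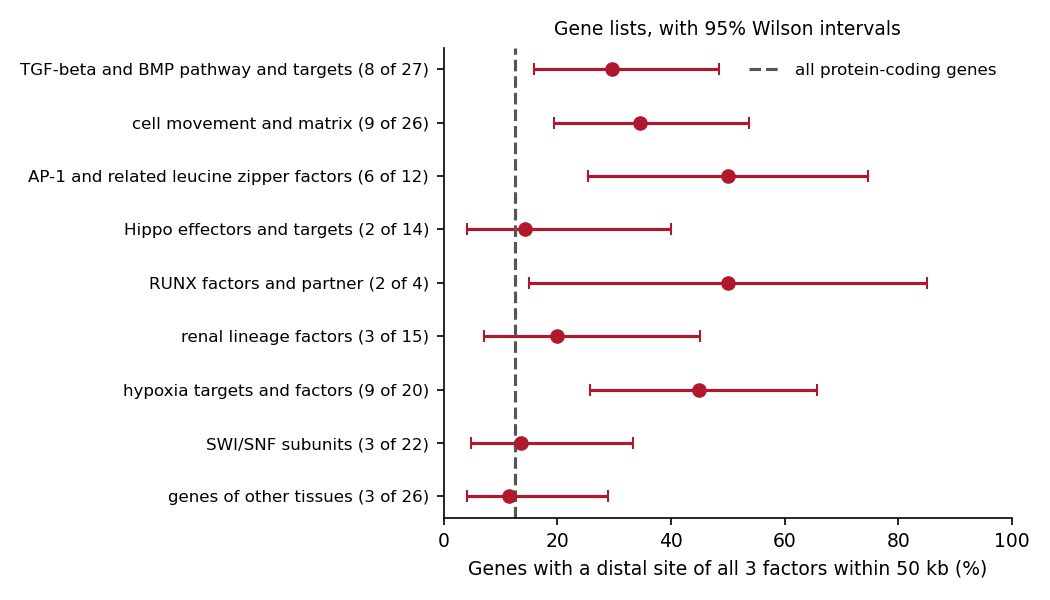
Share of genes of each list with a distal site of all 3 factors within 50 kb of the canonical start (x axis, points with 95% Wilson intervals that cover counting error only), with the number of genes in brackets. The dashed line is the share over all protein-coding genes, 12.6%, and the lists range from 3 of 26 to 6 of 12.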

How the data were processed

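ChIP-seq libraries of DPF3a (through an HA tag), SMAD4 and p300 came from 786-O cells, 2 per factor, and were grouped by the factor in the sample titles. Per the study's methods and the submitters' processing notes, the authors trimmed reads with cutadapt, mapped them to hg38 with Bowtie2 2.3.5.1, removed duplicates with Picard and called peaks with MACS2 2.2.5. Each deposited list combines both replicates, so that replicates could not be compared. No input library is named. In the deposited lists the score is the −log10 q times 10, and the authors kept only scores over 50. The deposited fold enrichment is a ratio of summit pileup to local background, each plus 1, and −log10 p and −log10 q are the authors' Poisson values against that background.

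Summit height in whole reads and background were computed from fold enrichment and −log10 p. With an assumed fragment length of 200 bp and 2.7 Gb of mappable genome, the lowest backgrounds correspond to 15.8, 30.4 and 27.6 M reads for DPF3a, SMAD4 and p300. Values were used within a list only, and intervals cover counting error only.

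Overlaps gave the same calls as bedtools 2.31.1 in 6 of 6 combinations of list and fraction. Starts, introns and exons are those of GENCODE 44, and RefSeq starts served as a second annotation. Exact consensus motifs were matched on both strands in 101 bp windows of hg38. The flanking windows were centred 500 bp away. Shares have 95% Wilson intervals, and differences Newcombe intervals or, where weighted, normal ones. The code was tested on simulated data. Genes named are those nearest to the most sites, those of 9 lists with the most sites within 50 kb (all ties included), and the sites ranked by the product of their 3 percentiles, more than 20 kb from a gap of the assembly, off chromosome 8 and at most 1 per gene. Some items that these rules name are not reported here. The members, lists and motifs were chosen with earlier results of these data known. Of the members, 3 lay outside chromosomes 1 to 22, X and Y and 20 within 20 kb of a gap. Alternatives varied the score, the overlap, the distance from starts, the annotation, the window, the summit used and the weighting.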

Additional observations from a re-analysis of the deposited data

How the results depend on the processing

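The AP-1 excess over the flanks kept its direction and an interval above 0 under all 12 alternatives, from 10.8 points at p300 summits to 38.5 points in windows of 100 bp to either side. The excess over promoter sites did so under 12 of 13, and at scores over 200, with 138 members and 59 promoter sites, it was 8.65 points with an interval that included 0 (-5.14 to 20.2). The difference from DPF3a-SMAD4 sites without p300 was not distinguishable from 0. It turned negative at scores over 100 (-1.26), scores over 200 (-2.78), 1 bp overlap (-0.13), protein-coding starts only (-0.76), SMAD4 summits (-1.13) and weighting to DPF3a fold enrichment (-2.44, the one of these whose interval left out 0), and was 5.66 points (1.91 to 9.59) at an overlap of 0.8. The number of sites was 834 at scores over 100, 138 at scores over 200 and 617 at an overlap of 0.8, each by construction. The share of genes with a site was 3.70% at scores over 100, 17.2% at 1 bp overlap, 11.2% for the nearest gene only, 22.9% within 100 kb and 5.08% within 20 kb. The ratio of SMAD4 medians with and without p300 was 1.36 at scores over 100, 1.38 at 1 bp overlap, 2.69 by −log10 q and 2.12 by summit height. The weighting of all motifs to GC content, the classes of DPF3a strength for GC content and the comparison of nonamers were added after the data were seen. No paired analysis was possible because each deposited list combines the replicates of a factor. Peaks of p300, with a median of 27 reads at the sites, limit which distal sites were counted as having p300.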
